A study of Mus musculus with 7 samples.

Results

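C4 and 5-3, Ago2-knockout lines of mouse embryonic stem (ES) cells, were compared with wild-type E14 cells after all had been grown for 5 days in medium that directs them towards extra-embryonic endoderm (XEN). The members were chosen by their labels alone: the libraries Ago2KO_C4_XEN and Ago2KO_5-3_XEN, here KO XEN, against E14_XEN_A and E14_XEN_B, here WT XEN, which are 4 of the 7 libraries of the study. E14 is an ES cell line from blastocysts of 129/Ola mice. All 4 cultures were kept in RPMI with 15% serum, activin A at 10 ng/mL and all-trans retinoic acid at 0.1 µM, so both factors are common to the genotypes. The other 3 libraries are undifferentiated Ago2-knockout ES cells (KO ESC) in serum with LIF on gelatine, 1 of line C4 and 2 of line 5-3. They entered the fit and are named below only where a result turns on them. How the gene was disrupted is not given in the sources used here. Each knockout line appears once in KO XEN, and nothing in the labels ties A and B to separate cultures, so p-values measure only the spread between these libraries. Polyadenylated RNA was sequenced, and levels are CPM, each library's counts scaled to one common total with a further factor for composition. Paired values are given as libraries A and B for WT XEN, and as lines C4 and 5-3 for KO XEN.

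Argonaute proteins hold microRNAs, short RNAs that pair through their bases 2 to 8 (the seed) with sites in the 3'UTR of messenger RNAs, and the complex lowers the stability and translation of those messengers. Ago2 is the member of the family that can also cut a fully paired target. The extra-embryonic endoderm arises in the blastocyst as the primitive endoderm, which forms the visceral endoderm, an absorptive and secretory epithelium that takes up maternal protein and exports lipoproteins and plasma proteins, and the parietal endoderm, which lays down the thick basement membrane of Reichert. Retinoic acid and activin are both used to push ES cells towards these fates, and retinoic acid also pushes ES cells towards neural and mesodermal fates in other culture conditions.

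Total counts were 36427340 and 38595537 in WT XEN and 13941826 and 33389566 in KO XEN, so line C4 gives the less precise values for rare transcripts. The RNA is a bulk sample, in which fewer cells of a type and less RNA per cell cannot be told apart. Summed over 10 defining markers of extra-embryonic endoderm, WT XEN held 28541 and 41449 CPM and KO XEN 5306 and 6294 CPM, with 9 of the 10 lower in KO XEN, so the labelled cell type was far less marked in the knockout libraries. Most of the KO XEN sums was Sparc, at 4746 and 5256 CPM, against 7973 and 12357 CPM in WT XEN. Summed markers of undifferentiated ES cells stood at 856 and 918 CPM in WT XEN and 85.3 and 125 CPM in KO XEN, against a mean of 4874 CPM in KO ESC, with 7 of 8 lower in KO XEN. Tbx3 gave most of these KO XEN sums, at 67.8 and 86.9 CPM, against 131 and 131 CPM in WT XEN. Mitochondrial genes took 1.94% and 2.64% of counts in WT XEN and 0.781% and 0.979% in KO XEN. The Ago2 transcript itself had 394 and 432 CPM in WT XEN and 122 and 9.94 in KO XEN, with 94.4 CPM in line C4 and 9.37 and 9.65 CPM in line 5-3 as ES cells. The library labelled C4 thus kept more of the transcript than line 5-3 in both states, and the difference from WT XEN missed the threshold (adjusted p = 0.145) but passed with line as a block (adjusted p = 9.62e-05). Reads from a transcript that is made but not translated count in full, so these levels do not measure the protein.

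Expression differed between the genotypes at 8512 of 18426 genes tested, which is 46.2% of them, at an adjusted p below 0.05 in edgeR's quasi-likelihood test with Benjamini-Hochberg adjustment. Of these, 4115 genes (22.3% of those tested) were higher and 4397 (23.9%) were lower in KO XEN, and below "rose", "fell" and "called" refer to this test. Many changes were large: 1757 called genes rose and 1678 fell by at least 4-fold, while 254 rose and 484 fell by at least 16-fold. For 8509 of the 8512 called genes the libraries of the groups did not overlap, and neither did they for 14097 of all 18426 genes tested (76.5%), so non-overlap is common without a call. Because so many genes were called, the counts below are read against 22.3% higher and 23.9% lower. Of 15230 protein-coding genes 3876 rose and 3898 fell. Of 411 lincRNAs 44 rose and 84 fell, and of 132 small nucleolar RNAs 0 rose and 20 fell. For both noncoding types the shares called were below 22.3% higher and 23.9% lower. Small nucleolar RNAs are mostly not polyadenylated, so their counts in these libraries are uncertain. Without the library WT XEN B, which leaves only A in its group, 2511 genes were higher and 3232 lower.

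**Figure D1:**
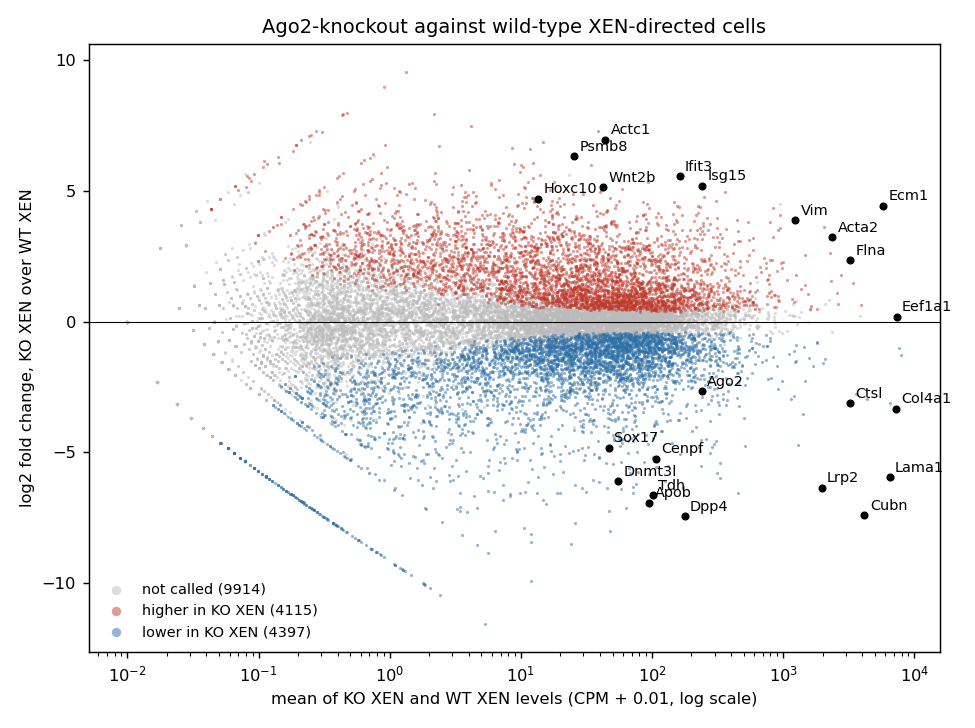
Each point is 1 of 18426 genes, with its mean level over both groups on the horizontal axis (CPM + 0.01, log scale) and its log2 fold change, KO XEN over WT XEN, on the vertical axis. Red and blue points passed the test, and the diagonal rows of points at the left are genes with few counts in 1 group, whose fitted values depend on the prior count of the fit.

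The largest falls among called protein-coding genes with at least 10 CPM in WT XEN included secreted and apical membrane proteins. Apoa2, an apolipoprotein, stood at 12.8 and 8.35 CPM in WT XEN and had 0 counts in both KO XEN libraries, at least 164-fold lower if 3 counts are taken as the floor of that group. Slco4c1, an organic anion transporter, had 1723 counts in WT XEN and 3 in KO XEN, a ratio of 366 (exact 95% interval 125 to 1775) that covers counting error only. Dpp4, a peptidase of apical membranes, was at 346 and 359 CPM in WT XEN and 1.74 and 2.22 in KO XEN (log2 fold change -7.44 ± 0.48). Enpep, another apical peptidase, stood at 28.6 and 162 CPM in WT XEN and 0.145 and 0.492 in KO XEN. Abcc2, an export pump of apical membranes, had 54.7 and 6.55 CPM in WT XEN and 0 and 0.369 in KO XEN. The WT XEN libraries differed several-fold from each other in Enpep and Abcc2, yet the lower of them exceeded both KO XEN libraries. The largest rises included genes of muscle, neurons and immunity. Actc1, the cardiac form of actin, was at 0.849 and 0.553 CPM in WT XEN and 86.4 and 88 in KO XEN (log2 fold change 6.95 ± 0.59). Stmn4, a microtubule-binding protein of neurons, stood at 0.329 and 0.166 CPM in WT XEN and 34.9 and 23.6 in KO XEN. Psmb8, a catalytic subunit of the immunoproteasome, had 0.904 and 0.332 CPM in WT XEN and 47.1 and 52.9 in KO XEN. Both KO lines lay close to each other for these genes. Nnat, an imprinted neuronal proteolipid, was at 0.877 and 0.111 CPM in WT XEN and 148 and 6.62 in KO XEN: both lines exceeded WT XEN, but C4 stood far above 5-3. Ecm1, an extracellular matrix protein, stood at 632 and 398 CPM in WT XEN and 9057 and 13091 in KO XEN (log2 fold change 4.43 ± 0.32). The calls of Abcc2 (without WT XEN A, or KO XEN C4 or 5-3, adjusted p up to 0.1) and Nnat (without WT XEN A or B, or KO XEN C4, adjusted p up to 0.23) were lost when 1 library was left out.

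**Figure D2:**
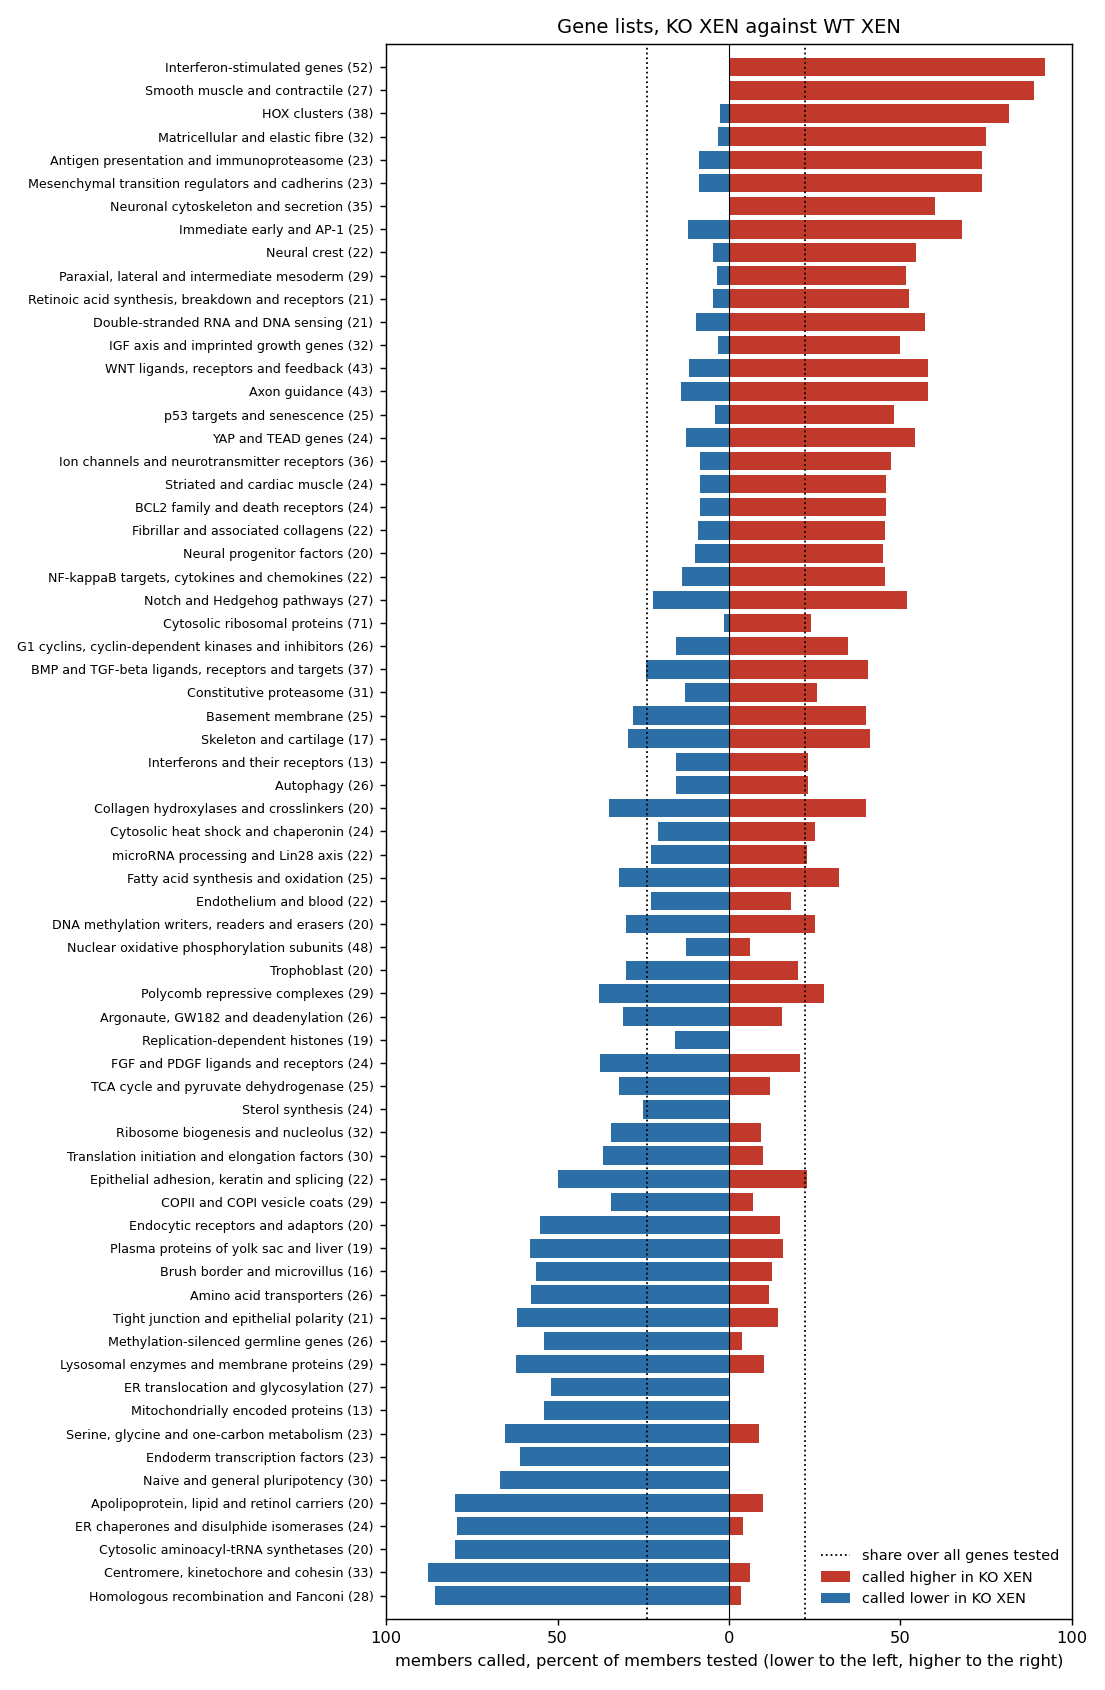
Bars give, for each of 67 gene lists, the percent of tested members called higher (red, to the right) or lower (blue, to the left) in KO XEN, with the number tested in parentheses. Dotted lines mark 22.3% higher and 23.9% lower over all genes tested. Interferon-stimulated genes stand at the top with 48 of 52 called higher and homologous recombination genes at the bottom with 24 of 28 called lower.

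The uptake machinery of the visceral endoderm was reduced. Of 20 tested endocytic receptors and adaptors 11 fell and 3 rose, with a median log2 fold change of -0.96, against 0.00 over all genes tested. Cubn, the receptor cubilin, on chromosome 2 (13276338 to 13491813, GRCm38), had 8229 and 8323 CPM in WT XEN and 8.64 and 88.5 in KO XEN (log2 fold change -7.40 ± 1.37, adjusted p = 0.00346). Amn, the membrane anchor of cubilin, was at 106 and 51.2 CPM in WT XEN and 0.29 and 1.66 in KO XEN (log2 fold change -6.14 ± 0.89). Dab2, an adaptor that links these receptors to clathrin, stood at 2003 and 2253 CPM in WT XEN and 257 and 336 in KO XEN (log2 fold change -2.84 ± 0.80). Both KO XEN libraries lay below both WT XEN libraries for each of these genes, and line C4 held less Cubn and Amn than line 5-3. The 3 members that rose were Lrp1, Sort1 and Stab1. Lrp1, an endocytic receptor of many cell types, had 187 and 111 CPM in WT XEN and 1738 and 1640.2 in KO XEN (log2 fold change 3.50 ± 0.25). Sort1, the sorting receptor sortilin, was at 63.4 and 41.7 CPM in WT XEN and 232 and 251 in KO XEN. Stab1, a scavenger receptor, stood at 0.192 and 0.138 CPM in WT XEN and 1.16 and 0.769 in KO XEN. The calls of Dab2 (without WT XEN B, or KO XEN C4 or 5-3, adjusted p up to 0.11) and Stab1 (without any of the 4 XEN libraries, or KO ESC 5-3_2, adjusted p up to 0.2) were lost when 1 library was left out.

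Most carriers of lipid and retinol fell. Of 20 tested members 16 fell and 2 rose, with a median log2 fold change of -3.78 (-3.73 with members at 0 counts set to their bound). Apob, the core protein of the lipoproteins the yolk sac exports, had 309 and 71 CPM in WT XEN and 0.363 and 2.37 in KO XEN (log2 fold change -6.93 ± 0.94). Mttp, which loads lipid onto Apob, was at 435 and 471 CPM in WT XEN and 13 and 16.6 in KO XEN (log2 fold change -4.93 ± 0.23). Apoe, which many other cell types also make, stood at 685 and 323 CPM in WT XEN and 41.5 and 83.1 in KO XEN (log2 fold change -3.01 ± 0.43). The phospholipid transfer protein Pltp went the other way and had 33.5 and 11.6 CPM in WT XEN and 122 and 155 in KO XEN. Of 19 tested plasma proteins of yolk sac and liver 11 fell and 3 rose. Afp, alpha-fetoprotein, was at 45.1 and 10.7 CPM in WT XEN and 0.145 and 3.88 in KO XEN. Ctsh, also on this list though a lysosomal cathepsin rather than a plasma protein, stood at 740.3 and 540.2 CPM in WT XEN and 4.65 and 25 in KO XEN. Serpinf1 (106 and 83.3 CPM in WT XEN and 241 and 322 in KO XEN), a secreted serpin, Serping1, the C1 inhibitor, and Hpx, hemopexin, rose. With only genes of at least 1 CPM tested, 3 plasma proteins were higher and 6 lower, since low genes then leave the test, and DESeq2 called 2 higher and 7 lower. The calls of Afp (without WT XEN A, or KO XEN C4, adjusted p up to 0.16) and Hpx (without any of the 4 XEN libraries, or KO ESC 5-3_1 or 5-3_2, adjusted p up to 0.19) were lost when 1 library was left out.

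Structures of the apical surface followed. Of 16 tested brush border genes 9 fell and 2 rose. Vil1, villin, stood at 19.6 and 4.62 CPM in WT XEN and 0.0726 and 0.677 in KO XEN, and Pls1, plastin 1, which bundles actin in microvilli, at 47.2 and 22 CPM in WT XEN and 0.581 and 0.615 in KO XEN (log2 fold change -5.84 ± 0.56). Ezr, ezrin, which links microvilli to the membrane in many cells, had 289.8 and 163 CPM in WT XEN and 300.3 and 192 in KO XEN and was not called. Of 21 tight junction and polarity genes 13 fell and 3 rose. Ocln, occludin, was at 111 and 73.4 CPM in WT XEN and 3.92 and 9.26 in KO XEN (log2 fold change -3.77 ± 0.48). Cldn6, a claudin of early epithelia, stood at 720.3 and 484 CPM in WT XEN and 112 and 64.7 in KO XEN. Cldn4 went up instead, from 54.2 and 17.8 CPM in WT XEN to 289.8 and 167 CPM in KO XEN (log2 fold change 2.66 ± 0.50). Of 22 genes of epithelial adhesion, keratins and splicing 11 fell and 5 rose. Esrp1, a splicing factor of epithelia, had 60.4 and 43 CPM in WT XEN and 3.78 and 6.09 in KO XEN. Ap1m2, an adaptor subunit for basolateral sorting, was at 137 and 114 CPM in WT XEN and 3.34 and 6.98 in KO XEN (log2 fold change -4.56 ± 0.37). Cdh1, E-cadherin, fell to 341 and 184 CPM from 700.0 and 450.3 CPM (log2 fold change -1.13 ± 0.31). Junction and keratin genes that rose were Krt7 (21 and 8.9 CPM in WT XEN and 95.4 and 39.9 in KO XEN), Krt19, Pkp2, Jup and Itgb4. These 5 of the 22 genes on the list are 22.7%, near the 22.3% over all genes. Without WT XEN B this list had 2 members higher and 10 lower, and without KO XEN C4 2 higher and 11 lower. The calls of Cdh1 (without WT XEN A, or KO XEN 5-3, adjusted p up to 0.063), Itgb4 and Krt7 (without WT XEN B, or KO XEN C4, adjusted p up to 0.16) and Krt19 (without WT XEN B, or KO XEN C4 or 5-3, or KO ESC C4, 5-3_1 or 5-3_2, adjusted p up to 0.22) were lost when 1 library was left out.

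Transcription factors of the endoderm fell or did not pass, and 0 rose. Of 23 tested members 14 fell, with a median log2 fold change of -2.22. Gata4 and Gata6 are related zinc finger factors at the top of the primitive endoderm program. Gata4 stood at 520.2 and 644 CPM in WT XEN and 43.4 and 83 in KO XEN (log2 fold change -3.20 ± 0.75, adjusted p = 0.00965). Gata6 had 225 and 328 CPM in WT XEN and 96.6 and 169 in KO XEN (log2 fold change -1.05 ± 0.69, adjusted p = 0.245) and was not called. The difference between the 2 genes was not tested. Hnf4a, a nuclear receptor that drives apolipoprotein genes, was at 81.1 and 44.9 CPM in WT XEN and 0.218 and 3.85 in KO XEN (log2 fold change -4.80 ± 0.81). Foxa2, a forkhead factor of endoderm, stood at 56.3 and 57.6 CPM in WT XEN and 2.83 and 9.94 in KO XEN. Line 5-3 kept more of Hnf4a and Foxa2 than C4, and both lines lay below WT XEN. The call of Gata4 (without KO XEN C4, adjusted p = 0.071) was lost when 1 library was left out.

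**Figure D3:**
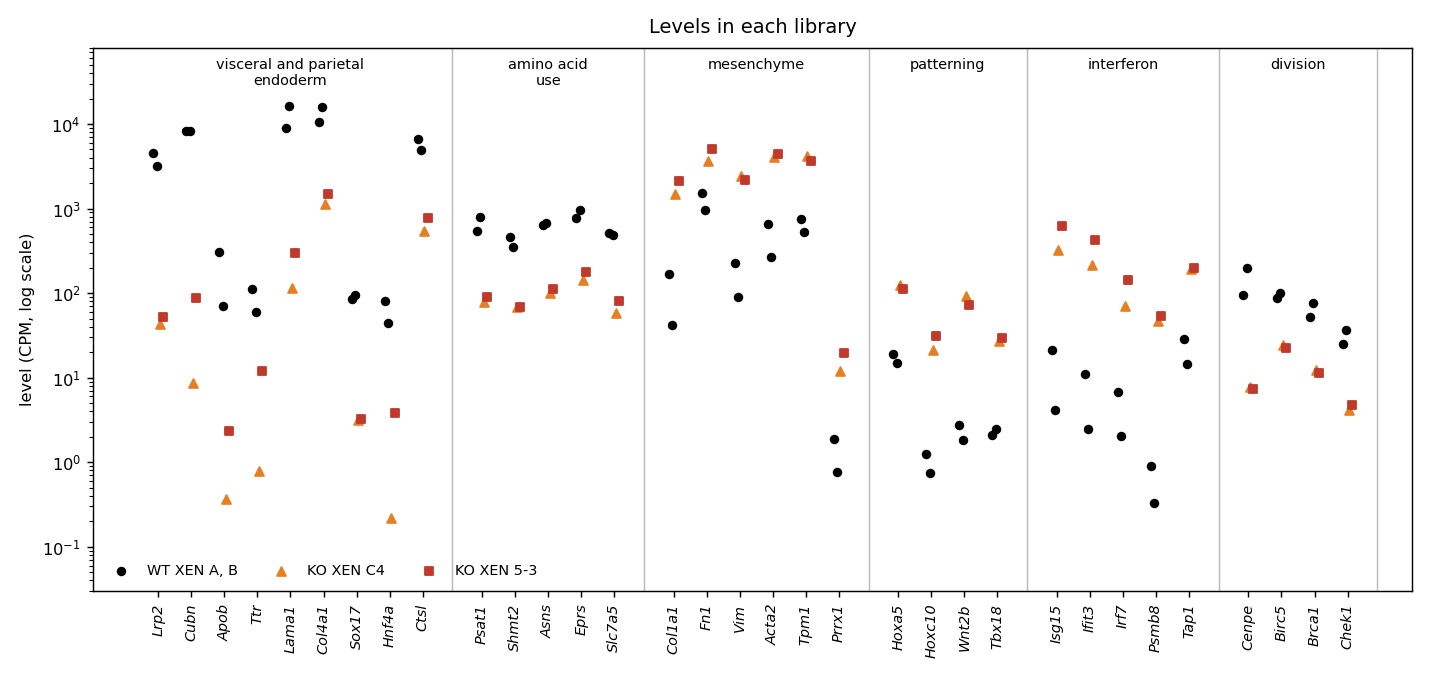
Levels of named genes in each library (CPM, log scale), as black circles for WT XEN A and B, orange triangles for KO XEN C4 and red squares for KO XEN 5-3. For each gene shown the KO XEN libraries lie on 1 side of the WT XEN libraries. Genes lower in C4 than in 5-3 include Cubn, Apob, Ttr, Lama1 and Hnf4a.

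Basement membrane genes went both ways: of 25 tested 10 rose and 7 fell. Col4a1, a collagen IV chain, on chromosome 8 (11198423 to 11312826), stood at 10420.1 and 15895 CPM in WT XEN and 1119.5 and 1493 in KO XEN (log2 fold change -3.33 ± 0.61), and its partner chain Col4a2 at 4989 and 7494 CPM in WT XEN and 849 and 1008 in KO XEN. Sparc, a collagen chaperone of basement membranes, had 7973 and 12357 CPM in WT XEN and 4746 and 5256 in KO XEN (log2 fold change -1.02 ± 0.22). Members that rose included those of other basement membranes. Col4a5, a chain of adult-type networks, was at 41.2 and 36.2 CPM in WT XEN and 388 and 297 in KO XEN (log2 fold change 3.14 ± 0.21). Fras1, a protein of the skin basement membrane, stood at 49.9 and 39.8 CPM in WT XEN and 305 and 493 in KO XEN (log2 fold change 3.15 ± 0.26). Smoc2, a matricellular protein, had 24.3 and 17.3 CPM in WT XEN and 221 and 328 in KO XEN. The call of Col4a2 (without WT XEN B, or KO XEN C4 or 5-3, adjusted p up to 0.072) was lost when 1 library was left out.

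The apparatus that makes secreted protein was reduced. Of 24 tested chaperones and disulphide isomerases of the endoplasmic reticulum 19 fell and 1 rose, with a median log2 fold change of -0.95. Ero1l, the oxidase that drives disulphide formation, was at 375 and 397 CPM in WT XEN and 39.5 and 45 in KO XEN (log2 fold change -3.19 ± 0.28, adjusted p = 0.00022). Hspa5, the chaperone BiP, stood at 1627 and 1614 CPM in WT XEN and 891 and 847 in KO XEN (log2 fold change -0.90 ± 0.17). The member that rose was Fkbp10, a chaperone of fibrillar collagen, at 79 and 32.1 CPM in WT XEN and 372 and 402 in KO XEN (log2 fold change 2.80 ± 0.38). Translocation and glycosylation genes gave 14 falls and 0 rises among 27, 5 of them of at least 2-fold. Rpn2, a subunit of the oligosaccharyl transferase, had 789.8 and 769 CPM in WT XEN and 369 and 407 in KO XEN. Of 29 genes for vesicle coats 10 fell and 2 rose. Sec24a, a cargo adaptor, stood at 179 and 212 CPM in WT XEN and 45.4 and 43.5 in KO XEN (log2 fold change -2.14 ± 0.18), while its relative Sec24b rose (98.6 and 106 CPM in WT XEN and 197 and 158 in KO XEN) and Sec24d, at 239.5 and 244 CPM in WT XEN and 193 and 264 in KO XEN, was not called. Of 29 lysosomal genes 18 fell and 3 rose. Ctsl, cathepsin L, was at 6556 and 4969 CPM in WT XEN and 547 and 770.2 in KO XEN (log2 fold change -3.13 ± 0.28). Lgmn, legumain, stood at 2605 and 2575 CPM in WT XEN and 181 and 271 in KO XEN (log2 fold change -3.52 ± 0.22). Another lysosomal protease, Ctsd, had 1082 and 945 CPM in WT XEN and 2368 and 1813 in KO XEN (log2 fold change 1.04 ± 0.18). Ctsd and Tfeb, a transcription factor of lysosomal genes (4.99 and 4.64 CPM in WT XEN and 9.44 and 9.2 in KO XEN), rose, so the lysosomal list did not fall as a block. The call of Sec24b (without KO XEN C4, adjusted p = 0.056) was lost when 1 library was left out.

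Many genes that supply amino acids to protein synthesis fell. Of 20 cytosolic aminoacyl-tRNA synthetases, the enzymes that charge tRNAs, 16 fell and 0 rose, 14 of them by at least 2-fold. Eprs, the synthetase for glutamate and proline, was at 774 and 967 CPM in WT XEN and 145 and 179.9 in KO XEN (log2 fold change -2.42 ± 0.19, adjusted p = 0.000182). Nars, for asparagine, stood at 733 and 805 CPM in WT XEN and 165 and 152 in KO XEN. Gars, for glycine, had 744 and 742 CPM in WT XEN and 232 and 221 in KO XEN. Both KO lines lay near each other and well below both WT XEN libraries. Of 23 genes of serine, glycine and one-carbon metabolism 15 fell and 2 rose. Psat1, the aminotransferase of serine synthesis, was at 547 and 787 CPM in WT XEN and 78.3 and 89.5 in KO XEN (log2 fold change -2.99 ± 0.21). Shmt2, the mitochondrial enzyme that turns serine into glycine, stood at 457 and 355 CPM in WT XEN and 67.7 and 67.9 in KO XEN (log2 fold change -2.58 ± 0.21). Asns, asparagine synthetase, had 635 and 682 CPM in WT XEN and 100.2 and 111 in KO XEN (log2 fold change -2.64 ± 0.17). Of 26 amino acid transporters 15 fell and 3 rose. Slc7a3, a carrier of arginine and lysine, was at 239 and 254 CPM in WT XEN and 2.54 and 4.37 in KO XEN (log2 fold change -6.11 ± 0.29). Slc7a5, a carrier of large neutral amino acids, stood at 509 and 491 CPM in WT XEN and 57.4 and 81.4 in KO XEN. Slc7a11, the cystine carrier, had 22.8 and 29.9 CPM in WT XEN and 0.508 and 0.369 in KO XEN. Slc38a4, an imprinted carrier of neutral amino acids, went the other way and was at 189 and 106 CPM in WT XEN and 2032 and 1486 in KO XEN (log2 fold change 3.57 ± 0.38).

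Lipid and energy metabolism gave mixed counts. Of 24 sterol synthesis genes 6 fell and 0 rose, a share near the 23.9% of all genes. Insig1, the sterol sensor of the endoplasmic reticulum, stood at 310.5 and 554 CPM in WT XEN and 26.8 and 56.5 in KO XEN (log2 fold change -3.37 ± 0.47). Without WT XEN B 11 members were lower, and without KO XEN C4 3 were. Fatty acid genes split into 8 higher and 8 lower of 25. Elovl6, an elongase, had 75.6 and 59.6 CPM in WT XEN and 9.51 and 7.72 in KO XEN (log2 fold change -2.98 ± 0.23), and Cpt1a, which admits fatty acids to mitochondria, rose (66.4 and 41.4 CPM in WT XEN and 85.2 and 154 in KO XEN). Without WT XEN B the fatty acid list had 3 higher and 8 lower, and without KO XEN 5-3 3 higher and 7 lower. Nuclear subunits of oxidative phosphorylation had few calls: of 48 tested 3 rose and 6 fell, both below the shares over all genes, with a median log2 fold change of 0.06. Without KO XEN C4 0 were higher and 3 lower. The 13 proteins that the mitochondrial genome encodes had 7 lower and 0 higher, with a median of -1.24. Among them mt-Nd4, a subunit of complex I, was at 1113 and 1647 CPM in WT XEN and 317 and 541 in KO XEN (log2 fold change -1.69 ± 0.29). The call of Cpt1a (without WT XEN B, or KO XEN 5-3, adjusted p up to 0.18) was lost when 1 library was left out.

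Genes of translation gave mixed counts. Cytosolic ribosomal proteins had 17 higher and 1 lower of 71, a share higher (23.9%) near the 22.3% over all genes, with a median log2 fold change of 0.42 and only 2 changes of at least 2-fold. Rps14 stood at 401 and 355 CPM in WT XEN and 636 and 671 in KO XEN (log2 fold change 0.79 ± 0.16) and Rpl7, the member that fell, at 856 and 891 CPM in WT XEN and 612 and 619 in KO XEN. These genes have many processed pseudogenes, so their counts are uncertain, and the calls rest on few libraries: the count of higher members was 4 without WT XEN B, 5 without KO XEN C4 and 2 without KO XEN 5-3. Of 32 genes of ribosome assembly 11 fell and 3 rose. Ncl, nucleolin, stood at 1106 and 1517 CPM in WT XEN and 299 and 284 in KO XEN (log2 fold change -2.17 ± 0.19, adjusted p = 0.000211). Npm1, nucleophosmin, had 407 and 541 CPM in WT XEN and 185 and 175 in KO XEN. Dkc1, the pseudouridine synthase dyskerin, was at 89.8 and 83.7 CPM in WT XEN and 18.9 and 23 in KO XEN (log2 fold change -2.05 ± 0.16). Of 30 translation factors 11 fell and 3 rose, or 11 and 5 without KO ESC C4. Eif3a, the largest scaffold of the initiation factor eIF3, stood at 547 and 875 CPM in WT XEN and 181 and 179.9 in KO XEN (log2 fold change -1.98 ± 0.23), Eif2s2 at 181 and 247 CPM in WT XEN and 40.9 and 46.2 in KO XEN, and the elongation factor Eef2 rose (3409 and 2754 CPM in WT XEN and 4810.4 and 4641 in KO XEN). The calls of Eef2 (without WT XEN B, or KO XEN C4 or 5-3, or KO ESC 5-3_1 or 5-3_2, adjusted p up to 0.083), Rpl7 (without WT XEN B, or KO XEN C4 or 5-3, adjusted p up to 0.092) and Rps14 (without KO XEN 5-3, adjusted p = 0.055) were lost when 1 library was left out.

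Lists of protein quality control were called at shares near or below those over all genes. Constitutive proteasome genes had 8 higher and 4 lower of 31, all but 1 of the changes under 2-fold, and 0 were higher without WT XEN B, KO XEN C4 or KO XEN 5-3. Of 24 cytosolic chaperones 6 rose and 5 fell, or 3 and 4 without WT XEN B and 3 and 3 without KO XEN 5-3. Hspb8, a small heat shock protein, stood at 31.8 and 16.9 CPM in WT XEN and 666 and 513 in KO XEN (log2 fold change 4.60 ± 0.38), and its partner Bag3 at 53.3 and 35.6 CPM in WT XEN and 116 and 126 in KO XEN. Hsp90aa1, the inducible cytosolic HSP90, stood at 424 and 509 CPM in WT XEN and 114 and 125 in KO XEN (log2 fold change -1.96 ± 0.17). Of 26 autophagy genes 6 rose and 4 fell, including Sqstm1, the cargo receptor p62, at 373 and 310.0 CPM in WT XEN and 822 and 716 in KO XEN (log2 fold change 1.17 ± 0.17).

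Genes of mesenchyme and of the contractile cytoskeleton rose. Of 27 smooth muscle and contractile genes 24 rose and 0 fell, 22 by at least 2-fold, with a median log2 fold change of 2.11. Acta2, smooth muscle actin, had 655 and 266 CPM in WT XEN and 4090.2 and 4473 in KO XEN (log2 fold change 3.22 ± 1.00). Cnn1, the actin-binding protein calponin, was at 34.7 and 13.3 CPM in WT XEN and 385 and 470.2 in KO XEN (log2 fold change 4.15 ± 0.53). Tpm1, a tropomyosin, stood at 744 and 529.8 CPM in WT XEN and 4190.3 and 3666 in KO XEN. Flna, a filamin that crosslinks actin, had 1277 and 850.1 CPM in WT XEN and 5046 and 5769 in KO XEN (log2 fold change 2.35 ± 0.27). Every one of these genes was higher in WT XEN A than in B, and both KO lines exceeded A. Striated and cardiac muscle genes had 11 higher and 2 lower of 24, or 7 higher without WT XEN A, without WT XEN B or without KO XEN 5-3. Nppa, a cardiac peptide hormone, was at 0.11 and 0.166 CPM in WT XEN and 2.76 and 4.34 in KO XEN. Myod1, the factor that sets skeletal muscle fate, was not tested, with 1 count in WT XEN and 0 in KO XEN. The 5 striated muscle markers, 2 of them called higher, summed to 5.04 and 7.85 CPM in WT XEN and 100.0 and 92.4 CPM in KO XEN, most of which was Actc1. The call of Acta2 (without any of the 4 XEN libraries, adjusted p up to 0.16) was lost when 1 library was left out.

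The extracellular matrix changed in composition. Of 32 matricellular and elastic fibre genes 24 rose and 1 fell. Thbs1, thrombospondin 1, stood at 304 and 137 CPM in WT XEN and 1358 and 1039 in KO XEN (log2 fold change 2.44 ± 0.45). Ltbp1, a binding protein of latent TGF-beta, had 92.6 and 57 CPM in WT XEN and 777 and 871 in KO XEN (log2 fold change 3.46 ± 0.27). Fn1, fibronectin, was at 1523 and 966 CPM in WT XEN and 3619 and 5029 in KO XEN (log2 fold change 1.80 ± 0.31). The member that fell was Lum, the proteoglycan lumican, with 83 counts in WT XEN and 0 in KO XEN, at least 17.6-fold lower. Of 22 fibrillar and associated collagens 10 rose and 2 fell. The chains of type I collagen parted: Col1a1, on chromosome 11 (94936224 to 94953042), stood at 169.5 and 42.2 CPM in WT XEN and 1469 and 2119 in KO XEN (log2 fold change 4.08 ± 0.67), while Col1a2, whose product joins Col1a1 in the same trimer, stood at 212 and 57.9 CPM in WT XEN and 28.5 and 36 in KO XEN (log2 fold change -2.06 ± 0.54). Both KO lines showed this parting. Collagen hydroxylases and crosslinkers split as well, with 8 higher and 7 lower of 20, or 6 and 4 without WT XEN B or KO XEN C4. The hydroxylases Plod2, which acts on collagen lysine (851 and 1675 CPM in WT XEN and 249 and 297 in KO XEN), and P4ha1, which acts on proline (357 and 450.5 CPM in WT XEN and 180.3 and 123 in KO XEN), fell. Loxl1, a crosslinker of secreted fibres, rose (14.5 and 4.84 CPM in WT XEN and 138 and 185 in KO XEN, log2 fold change 4.06 ± 0.49). The 8 fibroblast markers, with 4 called higher and 2 lower, summed to 738 and 327 CPM in WT XEN and 2572 and 4113 CPM in KO XEN, and their part in these results was not tested. The calls of Col1a2 (without WT XEN A, or KO XEN C4 or 5-3, adjusted p up to 0.092) and P4ha1 (without any of the 4 XEN libraries, adjusted p up to 0.15) were lost when 1 library was left out.

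Regulators of mesenchyme and mesoderm rose with the matrix. Of 23 transition regulators and cadherins 17 rose and 2 fell. Vim, vimentin, had 225 and 90.5 CPM in WT XEN and 2423 and 2202 in KO XEN (log2 fold change 3.87 ± 0.50). Zeb1, a repressor of epithelial genes, was at 13 and 11.8 CPM in WT XEN and 46.9 and 64 in KO XEN (log2 fold change 2.16 ± 0.23). Foxc2, a forkhead factor of mesenchyme, stood at 5.21 and 2.46 CPM in WT XEN and 41.2 and 101 in KO XEN. Snai1, another repressor of E-cadherin, was not called (log2 fold change -0.69 ± 0.43, adjusted p = 0.222). Cdh6, a cadherin of kidney epithelium, fell (62.7 and 95.1 CPM in WT XEN and 32.1 and 30.4 in KO XEN), as did Cdh4. Of 29 tested mesoderm factors 15 rose and 1 fell. Tbx18, a T-box factor of somites and epicardium, had 2.08 and 2.46 CPM in WT XEN and 27.1 and 29.7 in KO XEN (log2 fold change 3.64 ± 0.36). Wt1, a factor of kidney and mesothelium, was at 14.7 and 12.2 CPM in WT XEN and 145 and 187 in KO XEN (log2 fold change 3.63 ± 0.58). Endothelium and blood showed no such balance, with 4 higher and 5 lower of 22, near the shares over all genes, and 3 lower without KO XEN C4 or KO XEN 5-3. Eng, endoglin, rose (41.2 and 24.4 CPM in WT XEN and 272 and 191 in KO XEN), and Cdh5, the defining cadherin of endothelium, fell (5.67 and 4.81 CPM in WT XEN and 0.436 and 0.369 in KO XEN). Skeletal and cartilage genes split, with 7 higher and 5 lower of 17: Runx2, the bone factor, rose (1.15 and 0.94 CPM in WT XEN and 7.7 and 10.5 in KO XEN), and Spp1, osteopontin, fell (200.1 and 191 CPM in WT XEN and 9.8 and 8.15 in KO XEN, log2 fold change -4.45 ± 0.21). The call of Cdh6 (without WT XEN B, or KO XEN C4 or 5-3, adjusted p up to 0.15) was lost when 1 library was left out.

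HOX genes, which give position along the body axis and respond to retinoic acid, rose as a family. Of 38 tested in the 4 clusters 31 rose and 1 fell, with a median log2 fold change of 2.37. Hoxa5 stood at 19.2 and 15 CPM in WT XEN and 124 and 112 in KO XEN (log2 fold change 2.79 ± 0.30), Hoxc9 at 3.97 and 3.43 CPM in WT XEN and 36.4 and 49.5 in KO XEN (log2 fold change 3.54 ± 0.35) and Hoxc10 at 1.26 and 0.747 CPM in WT XEN and 21.1 and 31 in KO XEN (log2 fold change 4.69 ± 0.42). The lines were alike in each of these. The member that fell was Hoxa11, at 3.56 and 0.94 CPM in WT XEN and 0.145 and 0.0923 in KO XEN. The call of Hoxa11 (without WT XEN A, or KO XEN 5-3, adjusted p up to 0.071) was lost when 1 library was left out.

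Neural genes rose in part. Of 35 genes of the neuronal cytoskeleton and secretion 21 rose and 0 fell, with a median log2 fold change of 2.31 in the fit. The lines differed over this list. As log2 ratios to the WT XEN mean, with 0.5 CPM added, the medians were 1.87 in C4 and 0.69 in 5-3. Ncam1, a neural adhesion protein, stood at 51.8 and 40.3 CPM in WT XEN and 266 and 384 in KO XEN (log2 fold change 2.82 ± 0.29). Stx1a, a syntaxin of synaptic release, had 9.32 and 6.94 CPM in WT XEN and 46.5 and 50.6 in KO XEN. Stmn2, a tubulin-binding protein of growing axons, was at 5.04 and 2.93 CPM in WT XEN and 11.2 and 11.4 in KO XEN (log2 fold change 1.50 ± 0.24). Mapt, the axonal protein tau, stood at 4.14 and 2.96 CPM in WT XEN and 5.74 and 3.08 in KO XEN and Nefl, a neurofilament chain, at 24.4 and 22.2 CPM in WT XEN and 18.5 and 16.3 in KO XEN, neither of which was called. Of 43 axon guidance genes 25 rose and 6 fell, among them Nrp1, a semaphorin receptor, at 39.3 and 33.1 CPM in WT XEN and 294 and 219 in KO XEN (log2 fold change 2.83 ± 0.35). Efna5, an ephrin, stood at 8.03 and 6.97 CPM in WT XEN and 62.7 and 56.6 in KO XEN. Many of these genes also act in mesenchyme. Neural progenitor factors had 9 higher and 2 lower of 20. Nes, nestin, an intermediate filament of progenitors and of myogenic cells, had 60.9 and 38.5 CPM in WT XEN and 425 and 331 in KO XEN (log2 fold change 2.93 ± 0.57). Sox1, the defining factor of early neural plate, was at 0.247 and 0.111 CPM in WT XEN and 0.145 and 0.123 in KO XEN, near the floor in all 4 libraries. Of 22 neural crest genes 12 rose and 1 fell, including Sox9 (3.78 and 3.59 CPM in WT XEN and 36.4 and 28.1 in KO XEN), while Tfap2a, a defining factor of crest, was not called (0.822 and 1.24 CPM in WT XEN and 1.16 and 0.769 in KO XEN). Of 36 channels and neurotransmitter receptors 17 rose and 3 fell. Grik4, a kainate receptor subunit, stood at 0.219 and 0.111 CPM in WT XEN and 10.0 and 23.8 in KO XEN (log2 fold change 6.65 ± 0.81). The 6 neuron markers, 4 of them called higher, summed to 32 and 22.6 CPM in WT XEN and 134 and 169 CPM in KO XEN, against 487 CPM in KO ESC. Stmn2 alone gave 417 CPM of the KO ESC sum, and without it the other 5 summed to 70.3 CPM there, against 123 and 158 for KO XEN and 26.9 and 19.7 for WT XEN. Their part in these results was not tested.

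Signalling genes changed in most pathways. Of 21 genes for the synthesis, breakdown and reception of retinoic acid 11 rose and 1 fell. The receptors Rara (33.9 and 29.7 CPM in WT XEN and 79.6 and 98.1 in KO XEN, log2 fold change 1.48 ± 0.18) and Rarb (54.1 and 73.6 CPM in WT XEN and 103 and 116 in KO XEN, log2 fold change 0.78 ± 0.20) rose, as did Dhrs3, which returns retinal to retinol (117 and 117 CPM in WT XEN and 351 and 472 in KO XEN). The member that fell was Cyp26a1, which breaks retinoic acid down. Without KO XEN 5-3 the list had 7 higher and 1 lower. Of 43 WNT genes 25 rose and 5 fell, and without WT XEN B 16 were higher and 3 lower. Wnt2b, a ligand of lateral mesoderm, had 2.77 and 1.85 CPM in WT XEN and 91.8 and 72.4 in KO XEN (log2 fold change 5.15 ± 0.34). Axin2, a feedback target of the pathway, was at 4.93 and 4.51 CPM in WT XEN and 31.3 and 26.4 in KO XEN (log2 fold change 2.61 ± 0.25). Lef1, a nuclear partner of beta-catenin, stood at 0.493 and 0.221 CPM in WT XEN and 18.4 and 6.37 in KO XEN. Dkk1, a secreted inhibitor, fell (81.7 and 38.2 CPM in WT XEN and 1.09 and 2.22 in KO XEN, log2 fold change -5.11 ± 0.86), as did the inhibitors Frzb (15.2 and 33.2 CPM in WT XEN and 0.653 and 3.51 in KO XEN) and Sfrp5. The calls of Frzb (without WT XEN B, adjusted p = 0.051), Rarb (without WT XEN A, or KO XEN 5-3, adjusted p up to 0.13) and Sfrp5 (without WT XEN A, or KO XEN C4, adjusted p up to 0.1) were lost when 1 library was left out.

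Genes of the TGF-beta family moved both ways. Of 37 such genes 15 rose and 9 fell, and without KO XEN 5-3 12 were higher and 5 lower. Bmp2 (30.7 and 25.4 CPM in WT XEN and 5.95 and 4.4 in KO XEN, log2 fold change -2.45 ± 0.63) and Bmp6 fell, while Bmp7 (3.04 and 2.57 CPM in WT XEN and 41.6 and 30.9 in KO XEN, log2 fold change 3.69 ± 0.26) and Bmp4 (15.2 and 6.55 CPM in WT XEN and 43.5 and 48.5 in KO XEN) rose. The BMP targets Id1 (33.2 and 28.9 CPM in WT XEN and 107 and 88.8 in KO XEN) and Id3 (40.9 and 22.6 CPM in WT XEN and 308 and 408 in KO XEN, log2 fold change 3.49 ± 0.30) rose, and Fst, the activin inhibitor follistatin, fell (75.8 and 284 CPM in WT XEN and 23.7 and 15 in KO XEN). Among 24 FGF and PDGF genes 9 fell and 5 rose. Pdgfra, a receptor of primitive endoderm as well as of mesenchyme, had 267 and 767 CPM in WT XEN and 30.9 and 44.1 in KO XEN (log2 fold change -3.78 ± 0.70). Pdgfrb, a receptor of mesenchyme, was at 15.6 and 10.4 CPM in WT XEN and 104 and 173 in KO XEN (log2 fold change 3.41 ± 0.30), so these paired receptors went opposite ways. Fgfr1 rose (38.5 and 17.1 CPM in WT XEN and 196 and 282 in KO XEN) and Fgfr4 fell (23.2 and 28.6 CPM in WT XEN and 0.944 and 1.48 in KO XEN, log2 fold change -4.37 ± 0.44). Fgf3, a ligand, had 363 counts in WT XEN and 1 in KO XEN, a count ratio of 231 (exact 95% interval 41.2 to 9155). Of 27 Notch and Hedgehog genes 14 rose and 6 fell, or 11 and 3 without WT XEN B. Ihh, the ligand Indian hedgehog, stood at 39.6 and 44.8 CPM in WT XEN and 0.726 and 2.18 in KO XEN, and the Hedgehog target Gli1 at 5.86 and 4.64 CPM in WT XEN and 0.29 and 1.75 in KO XEN (log2 fold change -2.18 ± 0.55), while Gli3 (28.2 and 16.2 CPM in WT XEN and 156 and 149 in KO XEN) and Gas1, a co-receptor (50.3 and 38.6 CPM in WT XEN and 271 and 298 in KO XEN), rose. The call of Bmp2 (without WT XEN A, or KO XEN C4 or 5-3, adjusted p up to 0.083) was lost when 1 library was left out.

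Genes of the IGF axis and imprinted growth genes were called higher more often than lower, and H19 and Plagl1 differed between the lines. Of 32 tested members 16 rose and 1 fell, and 10 were higher and 1 lower without WT XEN B or without KO XEN C4. Cdkn1c, an imprinted inhibitor of the cell cycle, stood at 14.6 and 11.9 CPM in WT XEN and 113 and 176 in KO XEN (log2 fold change 3.45 ± 0.47). Igf2, the insulin-like growth factor 2, had 1064 and 566 CPM in WT XEN and 1269 and 3018 in KO XEN (log2 fold change 1.39 ± 0.42). H19, the noncoding neighbour of Igf2, was at 122 and 36.2 CPM in WT XEN and 3591 and 14.3 in KO XEN: C4 was far above both WT XEN libraries and 5-3 below both, so the groups overlapped and it was not called. Plagl1, an imprinted zinc finger factor, parted in the same way at 0.986 and 0.885 CPM in WT XEN and 90.5 and 0.769 in KO XEN. Igf1 was the member that fell (28.8 and 35.8 CPM in WT XEN and 0.871 and 1.51 in KO XEN, log2 fold change -4.71 ± 0.64). Of 24 genes of the YAP pathway 13 rose and 3 fell. Axl, a receptor kinase and YAP target, stood at 52.4 and 25.7 CPM in WT XEN and 551 and 475 in KO XEN (log2 fold change 3.71 ± 0.33), Ccn1 at 387 and 146 CPM in WT XEN and 657 and 701 in KO XEN and Ccn2, both matricellular targets, at 262 and 155 CPM in WT XEN and 504 and 352 in KO XEN, while Ankrd1, another target, was not called (51.1 and 29.1 CPM in WT XEN and 18.2 and 28.9 in KO XEN). Of 25 immediate early genes 17 rose and 3 fell, including Fos (11.9 and 5.09 CPM in WT XEN and 46.6 and 35.2 in KO XEN, log2 fold change 2.26 ± 0.40), Jun (63.5 and 44.4 CPM in WT XEN and 241 and 250.4 in KO XEN) and Egr1 (34.3 and 19 CPM in WT XEN and 140.0 and 113 in KO XEN). The calls of Ccn1 (without KO XEN C4 or 5-3, adjusted p up to 0.1), Ccn2 (without WT XEN B, or KO XEN C4, adjusted p up to 0.12) and Igf2 (without WT XEN B, or KO XEN 5-3, or KO ESC 5-3_2, adjusted p up to 0.28) were lost when 1 library was left out.

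Of the 67 lists, interferon-stimulated genes had the highest share called higher. These genes are switched on by interferon through factors that bind the interferon-stimulated response element, a DNA site with a core of 2 GAAA repeats set 2 bases apart (GAAA, any 2 bases, GAAA). Of 52 tested members 48 rose and 0 fell, 47 of them by at least 2-fold, with a median log2 fold change of 3.32. RefSeq promoters (GRCm38.p6, 250 bases before to 50 after each start) matched 40 of the 52 genes, and 21 of the 40 (52.5%) held this core on either strand. Over all 27025 RefSeq promoters 3.99% held it, among genes that rose 4.41%, among genes that fell 3.53% and among genes not called 3.29%. Counting matches on the gene's strand only, 12 of the 40 (30%) and 2.06% of all promoters held it. A match is a description and does not show binding. Members were listed as genes known to respond to interferon, so a high share with its element follows from that choice. It is no result of these libraries and does not bear on why the genes rose. Stretches around the matches are shown for 4 genes whose levels follow, 5' to 3' on the gene's strand, with matched bases in capitals (a match on the opposite strand reads TTTC, any 2 bases, TTTC, and overlapping matches run together):
Isg15 promoter, chr4:156200845-156200926, minus strand: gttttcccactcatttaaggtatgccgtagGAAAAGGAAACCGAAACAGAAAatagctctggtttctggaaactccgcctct
Ifit1 promoter, chr19:34640755-34640843, plus strand: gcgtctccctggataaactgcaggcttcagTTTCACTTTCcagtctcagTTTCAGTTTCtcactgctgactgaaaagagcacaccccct
Ifit3 promoter, chr19:34583343-34583446, plus strand: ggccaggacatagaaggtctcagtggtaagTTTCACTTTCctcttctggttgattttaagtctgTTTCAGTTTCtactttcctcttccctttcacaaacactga
Igtp promoter, chr11:58199492-58199555, plus strand: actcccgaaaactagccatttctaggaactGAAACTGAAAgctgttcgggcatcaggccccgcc

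Levels of these genes rose in both lines. Isg15, a ubiquitin-like modifier with 3 overlapping matches from 78 bases before its start, stood at 21.5 and 4.17 CPM in WT XEN and 319 and 615 in KO XEN (log2 fold change 5.19 ± 0.77, adjusted p = 0.00129). Ifit1, a sensor of foreign RNA caps with 2 matches, had 17.6 and 6.53 CPM in WT XEN and 189.8 and 379 in KO XEN (log2 fold change 4.56 ± 0.64). Ifit3, its partner, was at 11.1 and 2.49 CPM in WT XEN and 213 and 422 in KO XEN (log2 fold change 5.55 ± 0.70). Igtp, an immunity-related GTPase with 1 match, stood at 7.34 and 1.63 CPM in WT XEN and 149 and 213 in KO XEN (log2 fold change 5.33 ± 0.67). Line 5-3 exceeded C4 in all 4, and both exceeded WT XEN A, which in turn exceeded B. Ifit3 has a near-identical copy, Ifit3b, and reads may be split between them. Irf7, the factor that amplifies interferon genes, had 6.79 and 2.05 CPM in WT XEN and 71 and 143 in KO XEN (log2 fold change 4.60 ± 0.60).

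Interferons had few counts, while their targets and several sensors rose. Of 13 tested interferons and receptors 3 rose and 2 fell, near the shares over all genes. Ifnb1, interferon beta, was at 0.329 and 0 CPM in WT XEN and 0.799 and 2.22 in KO XEN and was not called, with 12 counts in WT XEN and 83 in KO XEN. Its receptor chain Ifnar1 rose slightly (90.4 and 104 CPM in WT XEN and 151 and 152 in KO XEN, log2 fold change 0.64 ± 0.20). Of 21 genes that sense double-stranded RNA or DNA 12 rose and 2 fell. Zbp1, a sensor of Z-form nucleic acid, stood at 0.466 and 0.194 CPM in WT XEN and 21.2 and 19.4 in KO XEN (log2 fold change 5.93 ± 0.52). Dhx58, the helicase LGP2, had 0.986 and 0.774 CPM in WT XEN and 18.9 and 27.5 in KO XEN. Ddx58, the helicase RIG-I, was at 59.5 and 46.2 CPM in WT XEN and 172 and 241 in KO XEN (log2 fold change 1.97 ± 0.21). Tmem173, the adaptor STING, rose (2.08 and 1.11 CPM in WT XEN and 17.1 and 13.5 in KO XEN), while the kinase Tbk1 fell. Of 23 genes of antigen presentation 17 rose and 2 fell. All 3 subunits of the immunoproteasome rose, with Psmb9 at 1.1 and 0.525 CPM in WT XEN and 8.13 and 10.4 in KO XEN and Psmb10 at 5.04 and 3.35 CPM in WT XEN and 68.9 and 82.1 in KO XEN, as did Tap1, the peptide transporter (28.6 and 14.6 CPM in WT XEN and 192 and 201 in KO XEN, log2 fold change 3.18 ± 0.33). B2m, the shared light chain of class I molecules, stood at 257 and 255 CPM in WT XEN and 382 and 454 in KO XEN (log2 fold change 0.71 ± 0.30) and was not called, and neither was the class I heavy chain H2-K1 (237 and 132 CPM in WT XEN and 149 and 153 in KO XEN). Class I genes resemble each other, so their counts are uncertain. Of 22 NF-kappaB targets and cytokines 10 rose and 3 fell: Csf1, a growth factor of macrophages (44.4 and 27.6 CPM in WT XEN and 508 and 402 in KO XEN), and the chemokine Cxcl12 (43.4 and 33.6 CPM in WT XEN and 355 and 830.5 in KO XEN) rose, and Il33 fell (69.9 and 123 CPM in WT XEN and 1.52 and 7.63 in KO XEN). The blood markers Ptprc, Hba-x and Hbb-y had 1, 2 and 2 counts in WT XEN and 0, 0 and 1 in KO XEN, too few to be tested. The call of Ifnar1 (without any of the 4 XEN libraries, or KO ESC 5-3_2, adjusted p up to 0.19) was lost when 1 library was left out.

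Most genes of cell division fell. Of 33 genes of centromere, kinetochore and cohesin 29 fell and 2 rose. Cenpe, a kinetochore motor, had 95.6 and 200.4 CPM in WT XEN and 7.77 and 7.35 in KO XEN (log2 fold change -4.29 ± 0.37, adjusted p = 0.000211). Aurkb, the Aurora B kinase, stood at 50.4 and 48.2 CPM in WT XEN and 18 and 17.6 in KO XEN, and its partner Birc5, survivin, at 88.6 and 101 CPM in WT XEN and 24.6 and 22.6 in KO XEN (log2 fold change -2.01 ± 0.15). The 2 that rose were Zwint (139.6 and 153 CPM in WT XEN and 471 and 226 in KO XEN) and Cenpt (36.2 and 37.7 CPM in WT XEN and 83.7 and 63.6 in KO XEN). Of 28 genes of homologous recombination and the Fanconi pathway 24 fell and 1 rose, with a median log2 fold change of -1.80. Brca1 was at 52.9 and 75.8 CPM in WT XEN and 12.5 and 11.4 in KO XEN (log2 fold change -2.43 ± 0.22). Chek1, a checkpoint kinase, stood at 25 and 37 CPM in WT XEN and 4.14 and 4.74 in KO XEN (log2 fold change -2.79 ± 0.23). The exception was Rpa1, a single-strand binding protein, at 133 and 103 CPM in WT XEN and 275 and 265 in KO XEN (log2 fold change 1.19 ± 0.28). Regulators of the G1 phase had 9 higher and 4 lower of 26. Several inhibitors of cyclin-dependent kinases rose. Cdkn2a had 41.9 and 15.7 CPM in WT XEN and 207 and 235 in KO XEN (log2 fold change 2.94 ± 0.43). Cdkn2b was at 31.4 and 13.3 CPM in WT XEN and 208 and 219 in KO XEN (log2 fold change 3.25 ± 0.37). Cdkn1b, p27, fell (62.4 and 79.6 CPM in WT XEN and 26.4 and 22.9 in KO XEN, log2 fold change -1.53 ± 0.36), and Ccnd1, cyclin D1, rose (16.6 and 8.6 CPM in WT XEN and 53.9 and 52.2 in KO XEN). The rate of division itself was not measured. The calls of Cdkn1b and Rpa1 (without WT XEN B, or KO XEN 5-3, adjusted p up to 0.073) and Zwint (without WT XEN A or B, or KO XEN C4, or KO ESC 5-3_2, adjusted p up to 0.27) were lost when 1 library was left out.

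Genes of cell death gave 11 higher and 2 lower of 24. Fas, a death receptor, rose (2.74 and 1.94 CPM in WT XEN and 16.7 and 8.18 in KO XEN), as did Mcl1, which protects cells (268 and 280.1 CPM in WT XEN and 545 and 530.3 in KO XEN), while Hrk, an activator of death in neurons, fell (37 and 40.9 CPM in WT XEN and 1.09 and 1.2 in KO XEN, log2 fold change -5.07 ± 0.26), so activators of death lay on both sides. Of 25 p53 target and senescence genes 12 rose and 1 fell. Mdm2, the ubiquitin ligase of p53, stood at 180.3 and 181 CPM in WT XEN and 452 and 247 in KO XEN (log2 fold change 0.95 ± 0.26). Gadd45a, a stress target of p53, had 31 and 24.6 CPM in WT XEN and 29.4 and 22.8 in KO XEN and was not called. The GAAA repeat core was found in 0 of the 19 promoters matched for that list, against 3.99% of all promoters. With a share that low, 19 promoters are too few to show a difference from it. The call of Mdm2 (without WT XEN A or B, or KO XEN C4, adjusted p up to 0.099) was lost when 1 library was left out.

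Silencing systems and the germline genes they control were examined next. Pluripotency genes had 20 lower and 0 higher of 30. Pou5f1, the factor OCT4, was at 96 and 84.7 CPM in WT XEN and 1.02 and 4.52 in KO XEN (log2 fold change -4.91 ± 0.52). Sall4, a zinc finger factor, stood at 132 and 208 CPM in WT XEN and 9.44 and 7.54 in KO XEN (log2 fold change -4.34 ± 0.27). Dppa5a, an RNA-binding protein of ES cells, had 489 and 577 CPM in WT XEN and 8.78 and 23.9 in KO XEN. Of 20 genes of DNA methylation 5 rose and 6 fell, with 1 to 5 higher and 3 to 8 lower when a library was left out. Dnmt3l, the cofactor of de novo methylation, was at 97.9 and 119 CPM in WT XEN and 1.67 and 1.54 in KO XEN (log2 fold change -6.09 ± 0.23), and Dnmt3a, a de novo enzyme, rose (140.4 and 124 CPM in WT XEN and 223 and 326 in KO XEN, log2 fold change 1.05 ± 0.24). Dnmt1, which maintains methylation, stood at 205 and 211 CPM in WT XEN and 182 and 175 in KO XEN and was not called. Of 26 germline genes that methylation keeps silent 14 fell and 1 rose. Dazl, an RNA-binding protein of germ cells, had 32 and 8.74 CPM in WT XEN and 1.6 and 1.11 in KO XEN. Taf7l, a germ-cell transcription factor, was at 23.4 and 49.4 CPM in WT XEN and 2.11 and 2.09 in KO XEN (log2 fold change -4.12 ± 0.64). Polycomb genes had 8 higher and 11 lower of 29, or 5 higher and 8 lower without KO XEN 5-3. Of the PRC2 complex, which writes the repressive mark, Suz12 (154 and 206 CPM in WT XEN and 34.7 and 42 in KO XEN, log2 fold change -2.23 ± 0.21) and Ezh2 (79.8 and 103 CPM in WT XEN and 36.9 and 38.2 in KO XEN) fell. The CBX reader Cbx7 (122 and 121 CPM in WT XEN and 303 and 263 in KO XEN, log2 fold change 1.22 ± 0.20) rose. Replication-dependent histones are mostly not polyadenylated, and their list had 3 lower and 0 higher of 19. Trophoblast genes gave 4 higher and 6 lower of 20, or 2 and 3 without WT XEN B and 4 and 3 without KO XEN 5-3, among them Gata3 (9.43 and 5.72 CPM in WT XEN and 43 and 37.3 in KO XEN), which rose, whereas Cdx2, a defining factor, had 0 counts in KO XEN. The calls of Cdx2 and Dnmt3a (without WT XEN B, or KO XEN 5-3, adjusted p up to 0.1) were lost when 1 library was left out.

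The rest of the microRNA machinery was called at shares not far from those over all genes. Of 26 genes of the Argonaute, GW182 and deadenylation complexes 4 rose and 8 fell, or 2 and 5 without WT XEN B or KO XEN C4. Tnrc6b, a GW182 scaffold, rose (77 and 95.2 CPM in WT XEN and 187 and 211 in KO XEN, log2 fold change 1.21 ± 0.16), and the deadenylase subunits Cnot6 (199.8 and 371 CPM in WT XEN and 107 and 110.4 in KO XEN) and Cnot7 (88.3 and 110.0 CPM in WT XEN and 53.4 and 55.4 in KO XEN) fell. Of 22 genes of microRNA processing 5 rose and 5 fell, 22.7% each and near the shares over all genes, or 3 and 3 without WT XEN B or KO XEN C4. Drosha stood at 201 and 218 CPM in WT XEN and 253 and 309 in KO XEN and Dgcr8, its partner in the nucleus, at 76.7 and 88 CPM in WT XEN and 69.6 and 63.3 in KO XEN, neither called. Lin28a, which blocks let-7 maturation, stood at 159 and 287 CPM in WT XEN and 17.2 and 7.75 in KO XEN (log2 fold change -4.18 ± 0.43), and its paralog Lin28b went the other way at 2.85 and 2.21 CPM in WT XEN and 24.1 and 13.7 in KO XEN (log2 fold change 2.89 ± 0.33).

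Seed matches in 3'UTRs were then compared across 14654 genes. Mature sequences are shown for the families most discussed in ES cells and their differentiation, the miR-294 and miR-302 family, which share a seed, miR-17, whose seed is that seed shifted by a base, and let-7, with bases 2 to 8 in capitals (RefSeq, GRCm38.p6):
mmu-miR-294-3p: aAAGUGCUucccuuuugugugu
mmu-miR-302b-3p: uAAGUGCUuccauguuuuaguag
mmu-miR-17-5p: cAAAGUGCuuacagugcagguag
mmu-let-7a-5p: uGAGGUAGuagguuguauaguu

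For each of 1398 seeds the median log2 fold change of genes with a match was set against genes without, within 5 classes of 3'UTR length. Classes with under 20 genes on either side were left out, and the differences were averaged. The 1379 seeds with at least 3 classes left were ranked. Over all ranked seeds this difference of medians ran from -0.44 to 0.67, with 5% of seeds below -0.21 and 5% above 0.32. The AAGUGCU seed of miR-294 and miR-302b gave a difference of -0.02 over 2535 genes with a match, and the AAAGUGC seed of miR-17 gave -0.01 over 2093. The seed of let-7a gave 0.11 over 1566 genes, that of miR-34a 0.18 and that of miR-26a -0.19. Within classes of both 3'UTR length and GC share, added after the data were seen, these were 0.03 for let-7a, 0.05 for miR-34a and -0.09 for miR-26a. Of 21 microRNAs looked for by name 16 were found, and 0 of these lay above the upper 5%. The 50 seeds with the highest differences had a median of 6 G or C bases, the 50 lowest 2, and all 1398 seeds 4, so the ranking followed base composition. Within the 9 classes of length and GC share 5% of seeds lay below -0.10 and 5% above 0.16. No correlation or test was drawn from this.

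Base composition of the 3'UTR moved with the genotype difference over all genes. Genes were divided into 5 classes of equal size by this share. In the class with the least G and C (up to 38.0%) 14.2% rose and 44.4% fell, with a median log2 fold change of -0.64. In the middle class 23.9% rose and 24.6% fell, with a median of 0.01. In the class with the most G and C (51.5 to 77.6%) 39.1% rose and 11.3% fell, with a median of 0.52. Both lines showed it, from -0.48 to 0.40 in C4 and from -0.54 to 0.40 in 5-3. Replicates showed some of it as well: the median log2 ratio of WT XEN B to A went from 0.17 in the lowest class to -0.16 in the highest, while that of KO XEN 5-3 to C4 went from 0.00 to 0.05. Classes by 3'UTR length showed no such order, with medians between -0.04 and 0.08. For the 64 gene lists in which at least 80% of members had a 3'UTR value, the median was taken again as a difference from genes of the same GC class. All 33 lists with a median beyond 1 in either direction kept its sign, and no list of the 64 moved by more than 0.52. For ribosomal proteins, mitochondrially encoded genes and nuclear subunits of oxidative phosphorylation (38 of 48) too few members had a value for this check. Whether the pattern arose in the cells or in the libraries was not tested.

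**Figure D4:**
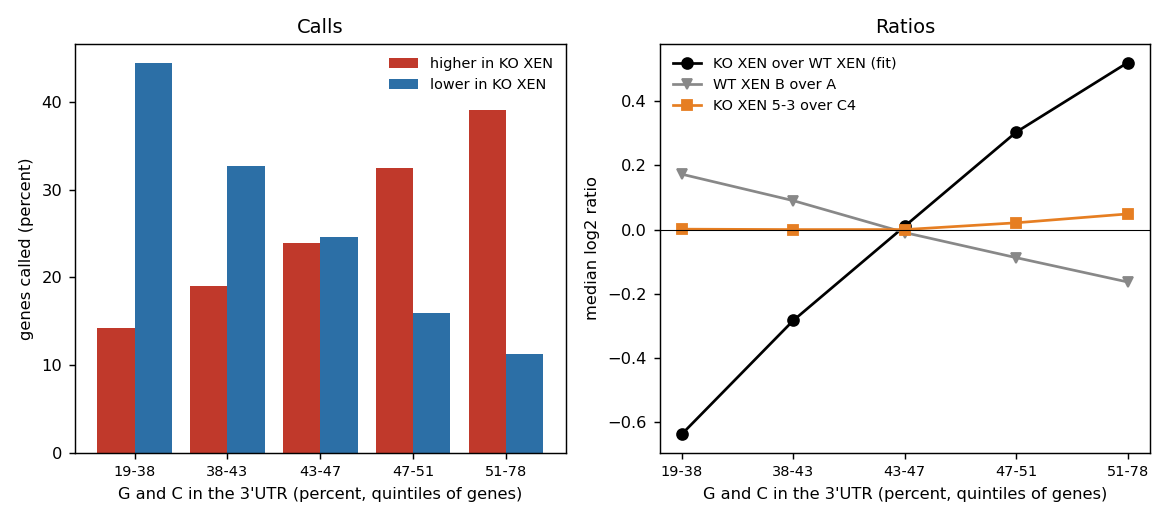
Genes were divided into 5 classes of equal size by the percent of G and C in their 3'UTR. Left, bars give the percent called higher or lower in KO XEN, and right, lines give the median log2 ratio of KO XEN to WT XEN and of the replicates to each other. The share that rose climbs from 14.2% to 39.1%, and the WT XEN replicates show a smaller slope.

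Chromosomes 1 and 15 stood apart from the rest. The comparison used 7232 protein-coding genes with at least 10 CPM in each of the 3 groups, whose median log2 fold change was -0.04. Chromosome 1 had a median of -0.70 over 416 genes, of which 8.41% rose and 55.3% fell, against 22.7% and 29.1% over all 7232. Chromosome 15, which carries Ago2 (73095844 to 73184935), had a median of 0.54 over 317 genes, of which 40.4% rose and 17.0% fell. All other chromosomes lay between -0.35 (chromosome 13) and 0.13 (chromosome 7). On chromosome 1 the medians of the 8 windows of 20 Mb with at least 20 genes, which hold 383 of the 416, lay between -1.10 and -0.50, and the lines were alike at -0.71 in C4 and -0.74 in 5-3. Relative to WT XEN, the undifferentiated knockout ES cells showed it too, with medians of -0.46 in C4 and -0.58 and -0.48 in 5-3. On chromosome 15 both lines were raised in KO XEN, at 0.48 in C4 and 0.56 in 5-3, and line 5-3 was raised as ES cells at 0.53 and 0.55, whereas C4 as ES cells was at -0.08. Windows of chromosome 15 ran from -0.18 (0 to 20 Mb) to 0.80 (60 to 80 Mb) in KO XEN. The -0.08 of C4 as ES cells covers both directions. Its windows had medians of 0.61, 0.22 and 0.25 from 0 to 60 Mb and of -0.30, -0.15 and -0.12 from 60 to 120 Mb. Against genes of the same 3'UTR GC class the medians were -0.53 for chromosome 1 and 0.40 for chromosome 15. Wild-type ES cells and DNA content were not analysed here, and the cause was not tested. Leaving out both chromosomes, a choice made after the data were seen, left 16475 genes, of which 3687 rose and 3834 fell, so 45.7% were called.

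**Figure D5:**
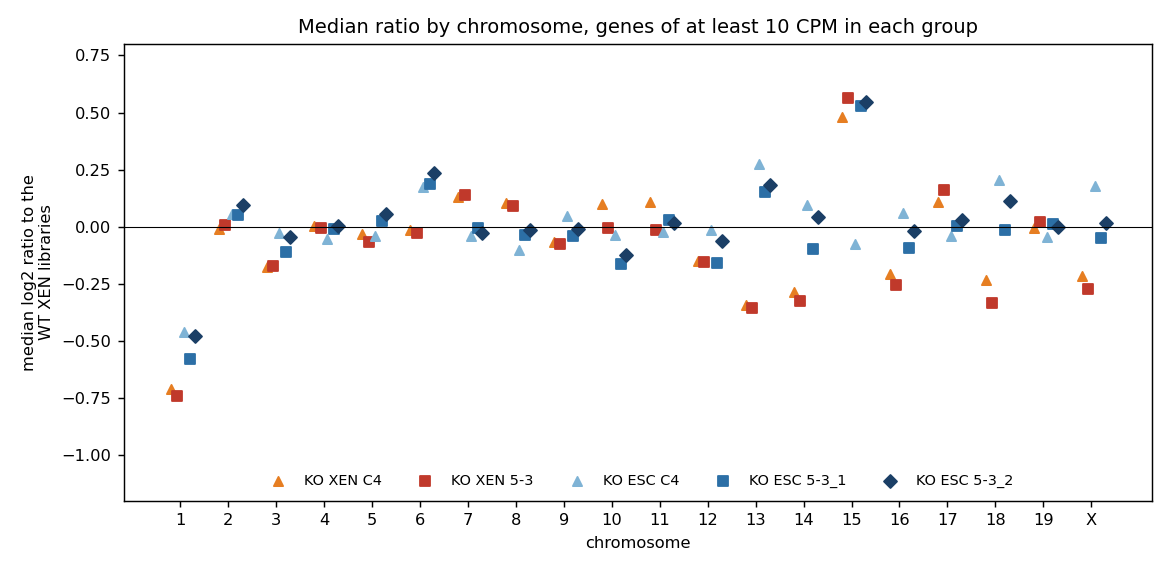
Points give, by chromosome, the median log2 ratio of each knockout library to the WT XEN libraries, over genes of at least 10 CPM in each group. Chromosome 1 lies below the rest in all 5 knockout libraries, and chromosome 15 above the rest in both KO XEN libraries and in both KO ESC libraries of line 5-3, but not in KO ESC C4.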

How the data were processed

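Gene-level read counts of 43629 genes were deposited by the authors as 1 table of 7 libraries, here used without change. Per the submitters' processing notes, STAR 2.4.2a, featureCounts 1.4.5-p1 and the mm10 build were used. The strand setting and annotation release are not given in the sources used here, so counts of overlapping, antisense and near-identical genes are uncertain. Symbols matched 42548 gene identifiers, and 1081 had none.

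Counts were fitted in R 4.3.3 with edgeR 4.0.16 (filterByExpr, TMM factors, quasi-likelihood test, Benjamini-Hochberg adjustment over 18426 tested genes, with 25203 not tested). All 7 libraries in 3 groups shared 1 estimate of the spread (4 residual degrees of freedom, biological coefficient of variation 0.268). Values after ± are approximate standard errors of the log2 fold change, KO XEN over WT XEN. They were derived as its absolute value divided by the square root of the F statistic of the test. Folds against groups at 0 counts use a floor of 3 counts over the group, and the intervals given with count ratios are exact and cover counting error only. On simulated counts for 18426 genes, the fit called 12 of 100 genes changed 2-fold and 78 of 100 changed 4-fold, with 3 false calls. In that simulation all other genes were unchanged and every gene had the same dispersion. In the data 46.2% of genes were called, so these rates do not carry over to them.

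The comparison and the 67 gene lists were chosen with earlier results of these data known. Genes named are Ago2, preselected key members and, per list, up to 4 of smallest adjusted p without overlap between the groups. Called members against a list's trend, the 15 largest rises and falls and the protein-coding genes highest in each group complete the rule. Plagl1, Igtp and Ifit3b fall outside that rule and were chosen after their values were seen, and Cdx2, Hba-x, Hbb-y, Myod1 and Ptprc come from the cell type markers. Coordinates and 3'UTRs come from GENCODE (GRCm38), and promoter and microRNA sequences from RefSeq (GRCm38.p6). Alternatives were other scalings and filters, DESeq2 1.42.0, the XEN libraries alone, a line block and the removal of libraries. Replicate numbers pair no KO XEN with a WT XEN library. The knockout lines recur in KO ESC and KO XEN, where the difference between lines correlated at 0.0797 over 18426 genes.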

Additional observations from a re-analysis of the deposited data

How the results depend on the processing

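No named gene that passed the test changed direction under any alternative run. Genes higher and lower in KO XEN numbered 4076 and 4422 with DESeq2 size factors, 4113 and 4340 with total counts, 4339 and 4185 with upper-quartile factors, 3465 and 4397 with no filter, 3677 and 4414 with a mean of at least 1 CPM, 3711 and 4164 with the 4 XEN libraries alone, 4220 and 4574 in DESeq2, and 4258 and 4605 with the line as a replicate block, against 4115 and 4397. Only the line ties libraries of different groups, and under that block Ago2, H19 and Plagl1 gained a call and Krt19 lost it. With 1 library left out, 2511 to 4318 genes were higher and 3154 to 5113 lower. The low ends were reached without WT XEN B (2511 higher) and without KO XEN C4 (3154 lower), and without KO XEN 5-3 2618 genes were higher. Lists with more members higher than lower numbered 29 to 33 and those with more lower 32 to 35 in these removals, against 34 and 31. Without both C4 libraries 3747 genes were higher and 3831 lower. Without all 5-3 libraries, which leaves 1 residual degree of freedom, edgeR called 0 genes higher and 0 lower, so 0 lists had more members higher and 0 more lower. At an unadjusted p below 0.05 that fit had 6514 genes, and DESeq2 was not run on it. Of 8453 called genes it tested, 2 had the opposite direction. Of 207 named genes that passed, 38 missed the threshold under at least 1 other alternative, among them Sparc without both C4 libraries and Gli1 with the 4 XEN libraries alone. In 44 of 67 lists no alternative but the removal of line 5-3 moved a count of at least 5 members by over 1.5 times, while 23 lists moved. Among those, with upper-quartile factors the TCA cycle list had 6 higher and 7 lower members, against 3 and 8, and with no filter on low counts or the 4 XEN libraries alone 8 and 10 ribosomal protein genes were higher, against 17. Searching the interferon motif on the gene's strand alone lowered the share of promoters with it from 52.5% to 30%. Depth limits rare transcripts most in KO XEN C4, which has 13941826 counts.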
